A study of Mus musculus with 8 samples.

Results

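The cytochrome P450 genes were taken as every non-control probe of the array whose gene name starts with Cyp followed by a digit. The rule found 102 genes and 137 probes, of 24883 named genes and 56605 probes in all. Of these, 52 probes of 43 genes were bright enough to be tested. Between control muscle and muscle of mice given Porphyromonas gingivalis, no P450 gene passed the test after adjustment over all tested probes. The smallest unadjusted p-values were those of Cyp4v3, Cyp2f2, Cyp2u1 and Cyp1b1, whose signals were higher in P. gingivalis muscle, and the probe behind the Cyp2u1 value turned out to hold a long GT repeat.

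Cytochrome P450 enzymes are haem proteins that insert an oxygen atom into a substrate. Most sit in the endoplasmic reticulum and take electrons from P450 reductase or cytochrome b5, and a smaller group sits in mitochondria and takes them from adrenodoxin. The lower-numbered families oxidise drugs, pollutants, fatty acids and eicosanoids, and the higher-numbered ones handle cholesterol, bile acids, steroid hormones, vitamin D and retinoic acid. Liver is the organ best known for them, and many are scarce in other tissues.

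RNA came from the tibialis anterior, a fast muscle at the front of the shin, of male C57BL/6J mice 14 weeks old. The control group and the P. gingivalis group each had 4 samples, and a high-fat diet is the diet the protocol names. P. gingivalis, a bacterium of the periodontal pocket, was delivered for 6 weeks in 100 µL of saline by feeding needle, starting at 8 weeks of age. Neither the bacterial strain and dose nor the treatment of the controls is given in the sources used here. The labels do not say outright that a sample is a mouse, and p-values measure the spread between samples. All groupings below are those of the scanner files. A deposited value table of the same arrays gives 4 of the 8 arrays the other group, and the labels and files do not settle which is right. Control 1, control 2, P. gingivalis 3 and P. gingivalis 4 are the arrays on which both sources give 1 group.

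Signals below are log2 values relative to each array's 75th percentile, and a difference is the P. gingivalis mean minus the control mean with its standard error. Before scaling, that percentile was 275 to 306 in control and 238 to 255 in P. gingivalis arrays. Controls lay in 1 row of the slide and P. gingivalis arrays in the other, so row and group cannot be told apart. All 9 skeletal muscle markers, such as Ckm and Acta1, were well above background and higher in P. gingivalis muscle. Their mean was 9.31 to 9.44 in control and 9.44 to 9.53 in P. gingivalis arrays, a narrow gap without overlap. Under the value table's groups, 2 were higher and 7 lower. Of 10 hepatocyte markers, Alb, Apoa1, Ttr, Fgb, Fga and Ahsg were well above background on no array.

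Most P450 genes were dim in this muscle. A probe was tested when it was well above background, as the scanner software defines it, on at least 4 of the 8 arrays. By that rule 43 of 102 P450 genes were tested, beside 16033 of all 24883 named genes. Of the 43, 38 were well above background on all 8 arrays. Of the other P450 genes, 10 were well above background on 1 to 3 arrays and 49 on none. Family 2, the largest and the one richest in liver enzymes, had 22 of 50 genes tested, and family 4, the fatty acid hydroxylases, 11 of 22. The name rule also took in 4 pseudogenes of these families and Cyp4x1os, whose probe lies on the strand opposite to Cyp4x1. All of them were well above background on no array and are counted among the 49. In family 3, the main drug-metabolising enzymes of liver, 1 of 8 genes was tested, Cyp3a41a. Among genes well above background on no array were Cyp7a1 and Cyp8b1 of bile acid synthesis, Cyp11a1, Cyp11b1 and Cyp11b2 of adrenal steroid synthesis, Cyp1a2, Cyp2b10 and Cyp24a1, which inactivates vitamin D. Cyp1a1, a classical target of the aryl hydrocarbon receptor, was well above background on 3 arrays at most, Cyp19a1, the aromatase, and Cyp7b1, the oxysterol hydroxylase, on 2, and Cyp27b1, which activates vitamin D, on 1.

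**Figure D1:**
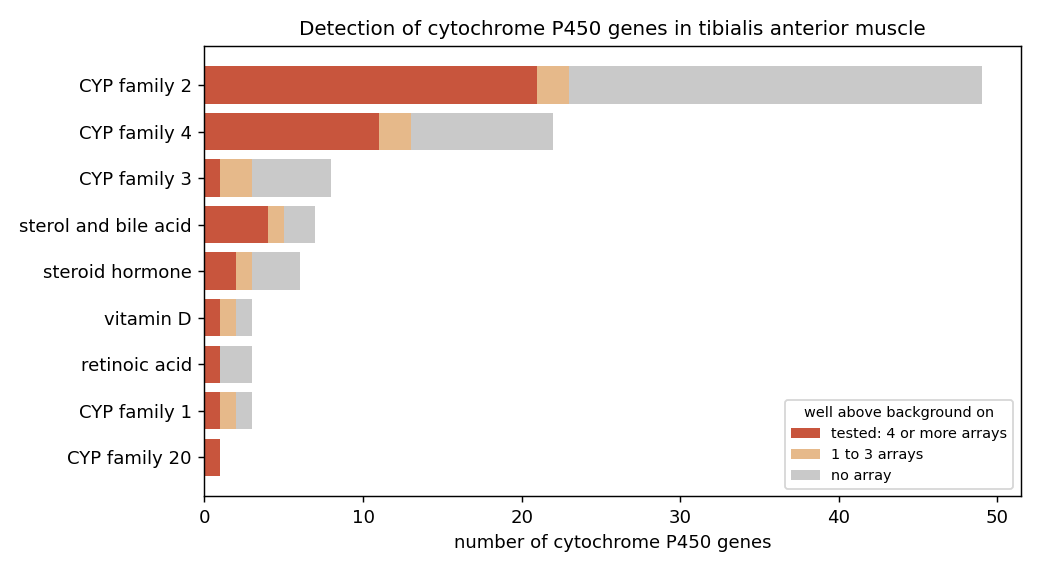
Number of cytochrome P450 genes (horizontal axis) by family or substrate group, coloured by the number of arrays with a probe well above background. Genes with a named endogenous substrate are drawn in their substrate group and not in families 2, 3 or 4, and family 4 shows 11 tested genes of 22.

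By limma, 0 of the 43 tested P450 genes had an adjusted p under 0.05, beside 0% of 16033 genes, and their adjusted p ran from 0.323 to 0.9999. At an unadjusted p under 0.05 there were 5 P450 genes, or 11.6%, beside 10.7% of all tested genes. These 5 were Cyp4v3, Cyp2f2, Cyp2u1, Cyp1b1 and Cyp4f39. All were higher in P. gingivalis muscle, 11.6% of the P450 genes beside 4.86% of all genes higher at that p, and 0 were lower, beside 5.83%. All values of one group lay above all of the other for 4 P450 genes, or 9.30%, beside 7.07% of all genes. Cyp4v3, Cyp2f2 and Cyp2u1 were higher, 6.98% of the P450 genes beside 3.24% of all genes. Cyp4x1 was lower, beside 3.83% of all genes, but it passed the filter on dim probes through the control arrays alone, so its place in this count says nothing. Over both directions the P450 shares lie near those of all genes, and among genes higher in P. gingivalis muscle they are above them. The higher counts include Cyp2u1 through its repeat probe, described below. Without that probe, an alternative chosen after seeing the data, 4 P450 genes were higher at an unadjusted p under 0.05, or 9.30%. Only 2 of 43 were then higher without overlap. Grouped as in the value table, the same arrays gave 4 P450 genes at an unadjusted p under 0.05, Cyp2d12, Cyp2t4, Cyp2d40 and Cyp21a1, or 9.30% beside 3.52% of all genes, and 1 without overlap, or 2.33% beside 2.43%. Normexp background correction, which adds an offset to every signal before scaling, gave 19, or 44.2% beside 26.4%, and 13 without overlap, or 30.2% beside 15.9%.

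The direction of the P450 genes leaned to higher signal. Of the 43 tested genes 32 were higher and 11 lower in P. gingivalis muscle, a share of 74.4% higher beside 45.7% of all tested genes. The median difference was 0.07 beside -0.01 for all genes, while the median pooled SD of a P450 gene within groups was 0.21. With normexp background correction the split was 39 higher and 4 lower, and the P450 median was 0.12 beside 0.02 for all genes. Grouped as in the value table the split was 20 higher and 23 lower with a median of -0.0043. Leaving out control 2 gave 24 higher and 19 lower, with a median of 0.02. With no filter on dim probes, 75 of 102 P450 genes were higher and 27 lower. Of these 102, 49 were well above background on no array, and dim spots carry a surrogate value. The percentile subtracted was lower on P. gingivalis arrays, which can raise such values there, so no conclusion is drawn from this split. The median over all genes was 0.02 in that setting. Whether the lean follows signal level was not tested. The pooled SD ran from 0.06 for Cyp2u1 to 0.91 for Cyp2d10, a dim gene named here after its values were seen, whose control arrays stood at -4.58, -5.15, -4.74 and -7.20.

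**Figure D2:**
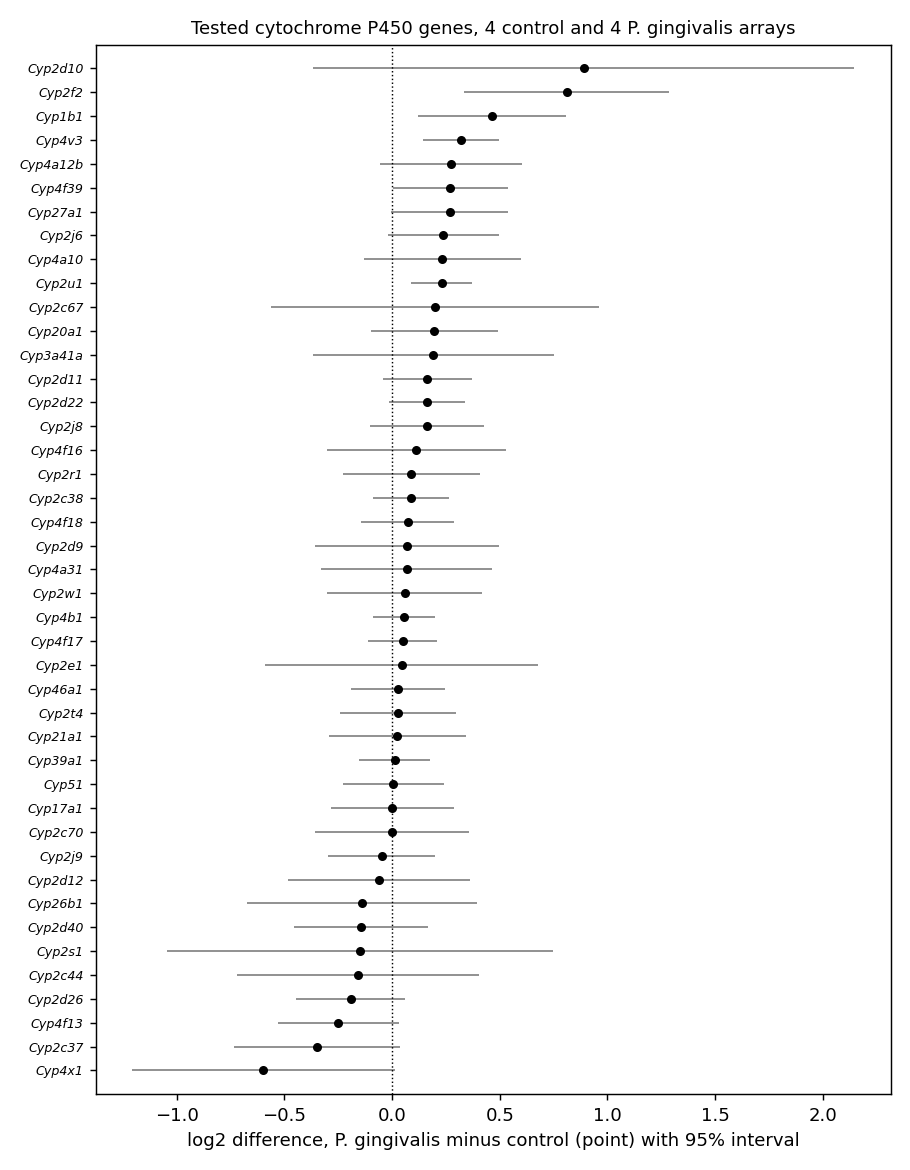
Log2 difference of each of the 43 tested cytochrome P450 genes, P. gingivalis minus control, with the 95% confidence interval of the fit. The intervals of Cyp4v3, Cyp2f2, Cyp2u1, Cyp1b1 and Cyp4f39 lie above 0, and none of the 43 genes has an adjusted p under 0.05.

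Cyp2u1, a fatty acid hydroxylase expressed in brain and thymus, has 3 probes on the array, and they gave different results. They are printed as deposited in the scanner files, 5′ to 3′, because the letters of one of them set it apart. All lie on the minus strand of chromosome 3 in the mm9 build, the bright one at chr3:130996343-130996402, the others at chr3:130997965-130998356 and chr3:131000768-131000827. The bright probe holds 16 GT units, 32 of its 60 bases. Its first 30 bases are given, with the start of the repeat in capitals.
Bright probe: actttatcattgGTGTGTGTGTGTGTGTGT
Second probe: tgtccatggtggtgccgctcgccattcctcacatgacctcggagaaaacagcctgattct
Dim probe: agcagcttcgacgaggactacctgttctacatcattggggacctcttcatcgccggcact
On the bright probe the control arrays read 6.59, 6.52, 6.68 and 6.66 and the P. gingivalis arrays 6.79, 6.82, 6.89 and 6.87. All P. gingivalis arrays lay above all controls, a difference of 0.23 ± 0.06 or 1.17-fold (95% confidence interval 1.06 to 1.29, adjusted p = 0.324 by limma). On the second probe the controls read -2.03, -2.66, -2.18 and -2.14 and the P. gingivalis arrays -2.03, -2.63, -2.36 and -2.69. The groups overlapped there, with a difference of -0.18 ± 0.18. The dim probe read -2.68, -3.62, -3.22 and -3.00 in controls and -2.94, -3.54, -3.10 and -3.05 in P. gingivalis arrays, overlapping with a difference of -0.03 ± 0.21.

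The repeat was shared by other probes of the array. Counting probes with at least 10 TG or CA units in a row, chosen as a class after the data were seen, there were 80, and all 80 were tested, beside 55.9% of all probes. The bright Cyp2u1 probe was the only P450 probe among them, and no other P450 probe had a run of over 5 units. Of the 80, 77 were higher in P. gingivalis arrays and 3 lower, with a median difference of 0.17, and for 47 every P. gingivalis array lay above every control. The share without overlap in that direction was 58.8%, beside 4.07% of the 3100 probes without such a repeat among the brightest 10% tested. The 58.8% is over all 80 repeat probes, of which 65 lay in that brightest 10%. All 48 TG probes were higher, with a median difference of 0.19, and 29 of 32 CA probes, with a median of 0.09. Per array, the median of the 80 probes was 5.21, 5.17, 5.30 and 5.21 in controls and 5.31, 5.33, 5.38 and 5.36 in P. gingivalis arrays, so the groups did not overlap. Under the grouping of the value table, 54 were higher and 26 lower, and for 0 did the groups stand apart. No repeat probe passed an adjusted p of 0.05 by limma. The difference of the bright Cyp2u1 probe lay within the range of the other repeat probes, and what these probes bind was not tested.

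**Figure D3:**
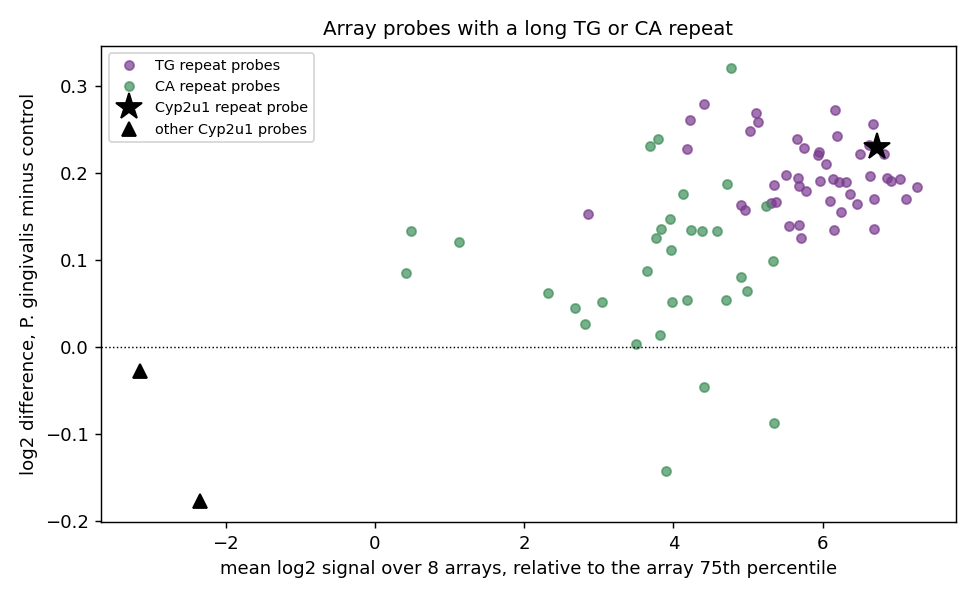
Mean log2 signal over 8 arrays (horizontal axis) against the log2 difference, P. gingivalis minus control (vertical axis), for 80 probes with at least 10 TG or CA units. The star is the repeat probe of Cyp2u1 at a difference of 0.23, and the triangles are its other probes at -0.18 and -0.03.

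Cyp4v3, a fatty acid hydroxylase whose human counterpart is mutated in a crystalline retinal dystrophy, had the lowest p of the P450 genes. Its control arrays read -2.39, -2.33, -2.25 and -2.28 and its P. gingivalis arrays -1.83, -2.06, -2.11 and -1.97. Every P. gingivalis array lay above every control. The difference was 0.32 ± 0.08, or 1.25-fold (95% confidence interval 1.10 to 1.41, adjusted p = 0.323 by limma). The Cyp4v3 probe, at chr8:46391395-46391454 on the minus strand (mm9), was well above background on all 8 arrays. Grouped as in the value table, the difference was -0.0012.

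Cyp2f2, best known as the naphthalene-oxidising P450 of airway club cells, read -3.04, -2.74, -2.36 and -3.41 in controls. The P. gingivalis arrays read -1.92, -2.04, -2.30 and -2.04. They were higher than every control, though control 3 came close to P. gingivalis 3. The difference was 0.81 ± 0.21, or 1.75-fold (95% confidence interval 1.26 to 2.44, adjusted p = 0.323 by limma). It was 0.43 with normexp background correction and -0.09 when grouped as in the value table. The probe lies at chr7:27918570-27918629 on the plus strand (mm9).

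Cyp1b1, which oxidises oestradiol, retinoids and polycyclic hydrocarbons and is a target of the aryl hydrocarbon receptor, read -2.35, -2.14, -1.86 and -2.47 in controls and -1.48, -1.73, -1.77 and -1.98 in P. gingivalis arrays. The groups overlapped through control 3, which lay above P. gingivalis 4. The difference was 0.47 ± 0.15, or 1.38-fold (95% confidence interval 1.09 to 1.75, adjusted p = 0.360 by limma), and -0.09 when grouped as in the value table. The probe lies at chr17:80106547-80106606 on the minus strand (mm9).

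**Figure D4:**
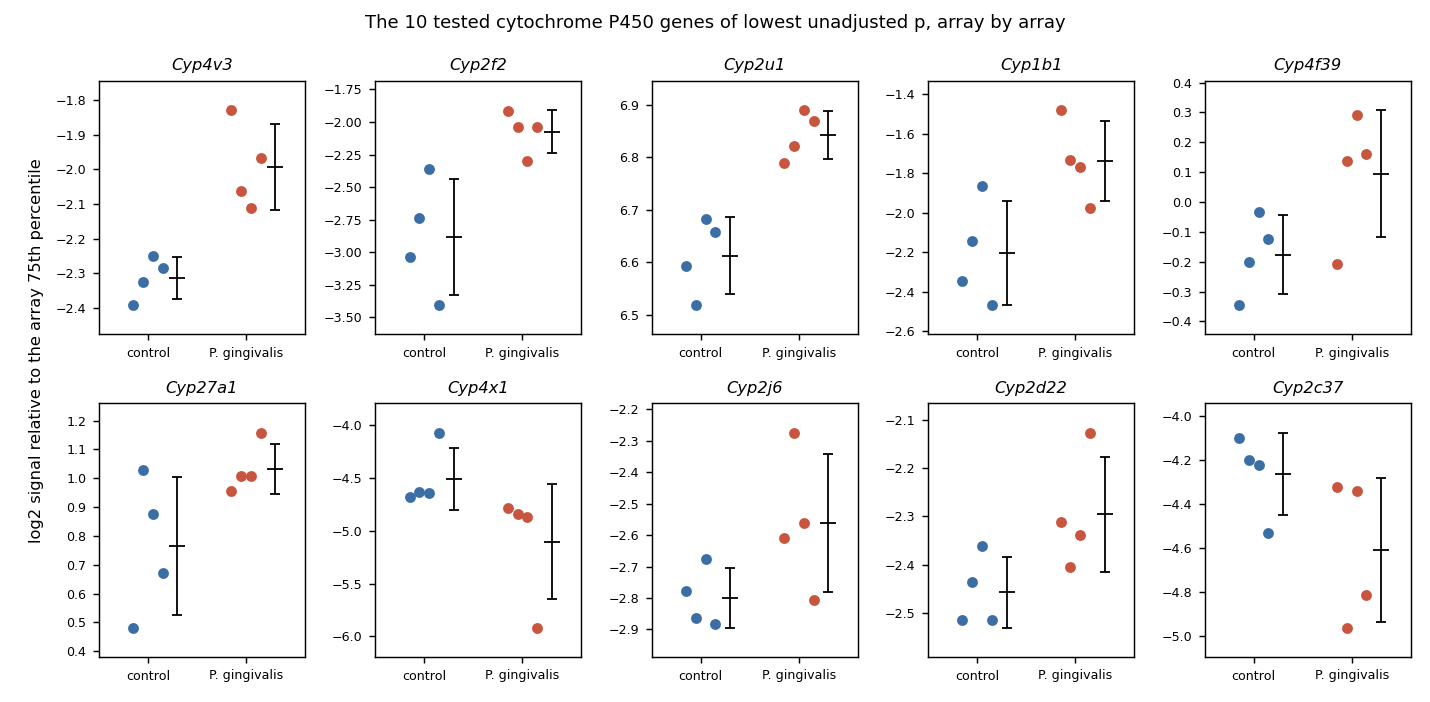
Log2 signal relative to the array's 75th percentile (vertical axes, each on its own range) for the 10 tested P450 genes of lowest unadjusted p, 1 point per array, with the group mean and SD beside the points (n = 4). All P. gingivalis points lie above all control points for Cyp4v3, Cyp2f2 and Cyp2u1, and below them for Cyp4x1.

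The 250 bases before the start site of Cyp4v3, Cyp2f2 and Cyp1b1 are shown because these genes had the lowest p among P450 genes measured by probes without a repeat. The sequences are RefSeq's, in build GRCm38.p6, 5′ to 3′ along the gene. Capitals mark GCGTG, the core of the aryl hydrocarbon receptor's response element, or its complement CACGC. The windows are chr8:45333164-45333413 (minus strand), chr7:27119705-27119954 (plus strand) and chr17:79715062-79715311 (minus strand).
Cyp4v3: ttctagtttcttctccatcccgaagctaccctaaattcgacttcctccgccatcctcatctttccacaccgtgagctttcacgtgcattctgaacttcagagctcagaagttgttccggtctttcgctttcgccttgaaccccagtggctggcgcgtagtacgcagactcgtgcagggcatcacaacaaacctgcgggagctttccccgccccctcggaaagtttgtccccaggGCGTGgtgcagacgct
Cyp2f2: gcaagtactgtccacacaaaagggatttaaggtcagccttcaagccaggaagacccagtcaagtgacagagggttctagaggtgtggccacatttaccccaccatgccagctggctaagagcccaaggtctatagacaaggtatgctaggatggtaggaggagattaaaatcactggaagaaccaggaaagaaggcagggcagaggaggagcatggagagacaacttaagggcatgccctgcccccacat
Cyp1b1: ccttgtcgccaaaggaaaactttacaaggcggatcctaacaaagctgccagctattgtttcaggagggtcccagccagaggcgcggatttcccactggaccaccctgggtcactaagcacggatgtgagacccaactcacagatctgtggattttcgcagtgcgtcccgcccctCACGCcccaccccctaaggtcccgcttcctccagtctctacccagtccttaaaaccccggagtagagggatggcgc
Cyp4v3 held GCGTG from base 16 to base 12 before the start, and Cyp1b1 held it on the other strand from base 76 to base 72. Cyp2f2 held none in this window. Searched on both strands, the core was in 28.2% of 32851 promoters of the table and in 16 of the 85 P450 promoters listed, or 18.8%, which belong to 75 of the 102 genes. The GC box GGGCGG was in 32.7% of all promoters and in 18 P450 promoters, including those of Cyp4v3 (bases 44 to 39) and Cyp1b1 (bases 84 to 79). The TATA box TATAAA was in 12.4% of all and in 28 P450 promoters, or 32.9%, and CCAAT in 33.9% of all and in 35 P450 promoters, or 41.2%. None of the latter 2 motifs was in the 3 windows shown. A match describes letters, not a bound site.

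The fatty acid and eicosanoid P450 enzymes of families 2 and 4 gave small differences in both directions. Cyp4f39, an omega-hydroxylase of very long fatty acids in skin barrier lipids, read -0.35, -0.20, -0.03 and -0.12 in controls and -0.21, 0.14, 0.29 and 0.16 in P. gingivalis arrays. P. gingivalis 1 lay among the controls, and the others above them. The difference was 0.27 ± 0.12 (95% confidence interval 0.0028 to 0.54 on the log2 scale, adjusted p = 0.444 by limma), or 1.21-fold. Cyp4x1, a family 4 enzyme best known from brain, went the other way. Its probe was well above background on 4 control arrays and on no P. gingivalis array, so its P. gingivalis level is uncertain. Controls read -4.68, -4.64, -4.64 and -4.07 and P. gingivalis arrays -4.79, -4.84, -4.87 and -5.92. With each dim array set to the higher of its own value and the lowest signal of a probe well above background, control muscle was 1.27-fold higher. That value is no lower bound, and it rests on the control signals that let the gene pass the filter, so no conclusion is drawn from it. The fit on the measured values gave an adjusted p of 0.451 by limma, for a gene that entered it through the control arrays alone. The measured means of -4.51 and -5.10 differed by -0.60, by -0.33 without P. gingivalis 4 and by 0.10 with normexp background correction.

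Cyp2j6 and Cyp2j9 belong to a subfamily that oxidises arachidonic acid and other polyunsaturated fatty acids. Cyp2j6 averaged -2.80 ± 0.09 in controls and -2.56 ± 0.22 in P. gingivalis arrays (SD, n = 4 each), a difference of 0.24 ± 0.11. It was 0.14 without P. gingivalis 2 and -0.10 when grouped as in the value table. For Cyp2j9 the means were -2.08 ± 0.13 and -2.13 ± 0.19, a difference of -0.05 ± 0.11. The groups overlapped for both. Cyp2c37, of a subfamily that also oxidises arachidonic acid, differed by -0.35 ± 0.17, but was well above background on 4 control and 2 P. gingivalis arrays, and with normexp background correction the difference was 0.12. Cyp4f13, of the subfamily of fatty acid and leukotriene hydroxylases, differed by -0.25 ± 0.12 on its brighter probe. On a second probe it differed by -0.37 ± 0.26, but that probe was well above background on 3 control arrays and 1 P. gingivalis array. Cyp4f18, the leukotriene hydroxylase of mouse neutrophils, differed by 0.07 ± 0.09, and Cyp4b1 by 0.05 ± 0.06. Adjusted p was 0.470 for Cyp2j6, 0.476 for Cyp2c37 and 0.483 for Cyp4f13 by limma.

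Cyp2e1, the ethanol-inducible P450 of liver and fat, varied more within groups than between them. Its controls read -1.03, -1.40, -0.50 and -1.08 and its P. gingivalis arrays -0.40, -1.51, -0.64 and -1.27, a difference of 0.04 ± 0.28. The low and high arrays of either group spanned nearly the same range. Cyp2d22, a family 2D enzyme found outside liver, differed by 0.16 ± 0.08 (adjusted p = 0.472 by limma) with overlapping groups. Cyp2s1, an epithelial enzyme that acts on retinoids and prostaglandins, was well above background on 2 arrays of either group and differed by -0.15 ± 0.39. It was 0.18 with normexp background correction.

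The sterol enzymes lay close to no difference except Cyp27a1, the mitochondrial sterol 27-hydroxylase. Cyp27a1 read 0.48, 1.03, 0.88 and 0.67 in controls and 0.95, 1.01, 1.01 and 1.16 in P. gingivalis arrays. Control 2 lay among the P. gingivalis arrays and the other controls below them. Its difference was 0.27 ± 0.12, or 1.20-fold (95% confidence interval 0.997 to 1.45, adjusted p = 0.450 by limma), and 0.17 without control 1. Cyp51, the lanosterol demethylase of cholesterol synthesis, differed by 0.01 ± 0.10, Cyp39a1, a hydroxylase of 24-hydroxycholesterol, by 0.01 ± 0.07, and Cyp46a1, which makes 24-hydroxycholesterol in neurons, by 0.03 ± 0.10. A p that misses the threshold does not show that levels were alike. For Cyp39a1 the 95% confidence interval of the fold ran from 0.9 to 1.13.

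Of the vitamin D, retinoid and steroid enzymes, Cyp2r1, the vitamin D 25-hydroxylase, averaged 1.94 ± 0.28 in controls and 2.03 ± 0.13 in P. gingivalis muscle (SD, n = 4 each), a difference of 0.09 ± 0.14. Cyp26b1, which clears retinoic acid, read 0.22, 0.56, 0.62 and 0.12 in controls and -0.19, -0.13, 0.48 and 0.79 in P. gingivalis arrays. P. gingivalis 1 and 2 lay below the controls and P. gingivalis 4 above them, with a mean difference of -0.14 ± 0.23. In the value table under its own labels it was 0.40. Cyp17a1, the steroid 17-hydroxylase of adrenal and gonad, named here after its values were seen, was well above background on all 8 arrays, at 1.46 ± 0.18 and 1.46 ± 0.20. Cyp20a1, a P450 with no settled substrate, differed by 0.20 ± 0.13 on its brightest probe and by -0.10 and -0.07 on its other tested probes. Of the 7 tested genes with several tested probes, the probes gave 1 sign in 2 and differed in sign in 5.

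The partners of P450 enzymes were followed through 8 gene lists, and no gene of any list had an adjusted p under 0.05 by limma. Of 11 tested electron partners 5 were higher and 6 lower in P. gingivalis muscle, with a median of -0.02. Cyb5b, the outer mitochondrial cytochrome b5, had the lowest p of these, at 0.23 ± 0.09, followed by Cyb5a at 0.17 ± 0.08 and Pgrmc1, a haem-binding partner, at -0.13 ± 0.06. Of 13 haem genes 4 were higher and 9 lower, with a median of -0.06. Alas1, the first enzyme of haem synthesis, was at 0.25 ± 0.09, Hmox1, which breaks haem down, at -0.41 ± 0.16, and Alad at -0.17 ± 0.07 with groups that did not overlap. Of these genes, Cyb5a turned sign when grouped as in the value table, to -0.06.

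Receptors that control P450 genes gave no common direction. In the list of the aryl hydrocarbon receptor and its targets 4 of 6 tested genes were higher, with a median of 0.04. Aldh3a1, a target, was at 0.20 ± 0.07 and the receptor Ahr at -0.29 ± 0.19, while Ahrr and Ugt1a6a were well above background on no array. Of 11 tested nuclear receptors 3 were higher and 8 lower, with a median of -0.09. Rara, a retinoic acid receptor, averaged 2.27 ± 0.12 in controls and 1.97 ± 0.12 in P. gingivalis muscle (SD, n = 4 each), with no overlap and an adjusted p of 0.342 by limma. Rarg was at -0.16 ± 0.08 and the liver X receptor Nr1h2 at -0.10 ± 0.07. Grouped as in the value table, Rara was at 0.04, Rarg at 0.13, Ahr at 0.16 and Aldh3a1 at -0.05. These 4 turned sign, and Nr1h2 was at -0.12. Nr1i2, the xenobiotic receptor PXR, Hnf4a, Vdr and Nr0b2 were well above background on no array.

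Substrate pathways were measured beside the enzymes. Of 14 tested eicosanoid and epoxide genes 13 were higher and 1 lower, with a median of 0.08, and 1 had an unadjusted p under 0.05. That gene was Ptgis, the prostacyclin synthase, itself a P450 by structure, at 0.56 ± 0.24, followed by Pla2g4a, which releases arachidonic acid, at 0.23 ± 0.10 and Alox12 at 0.21 ± 0.12. Of 11 retinoid genes 6 were higher and 5 lower, with a median of 0.01, among them Aldh1a2, which makes retinoic acid, at 0.41 ± 0.13, the retinol-binding protein gene Rbp7 at -0.51 ± 0.16 and Stra6, a retinol transporter, at -0.37 ± 0.23. Of 19 sterol genes 5 were higher and 14 lower, with a median of -0.11, among them the cholesterol exporter Abca1 at 0.34 ± 0.12, the lanosterol synthase Lss at -0.21 ± 0.09 and Insig1, which restrains sterol synthesis, at -0.35 ± 0.18. Of 13 conjugating and other oxidising enzymes 7 were higher and 6 lower, with a median of 0.03. Grouped as in the value table, the eicosanoid list had 9 higher and 5 lower and the sterol list 10 higher and 9 lower, and Stra6 at 0.10 and Insig1 at 0.11 turned sign. The flavin monooxygenases Fmo1 and Fmo2 were each at 0.33 ± 0.11, Fmo1 without overlap.

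Fibroblast markers were also higher on the P. gingivalis arrays, none past an adjusted p of 0.05 by limma. In bulk muscle, more cells of a type and more RNA per cell cannot be told apart. All 9 fibroblast markers were higher in P. gingivalis muscle, 5 of them without overlap, beside 3.24% of all genes in that direction, and their median difference was 0.58. Grouped as in the value table, 6 were higher and 3 lower, with a median of 0.13. Their mean level was 2.30, 1.86, 2.64 and 2.47 in controls and 3.06, 2.89, 2.75 and 2.68 in P. gingivalis arrays, with no overlap. Control 3 was the highest control for these markers, for Cyp2f2 and for Cyp1b1, and P. gingivalis 1 the highest of its group for all of them. The lowest arrays were shared only in part. The markers were lowest on control 2 and P. gingivalis 4, Cyp2f2 on control 4 and P. gingivalis 3, and Cyp1b1 on control 4 and P. gingivalis 4. Of 9 macrophage markers 8 were higher, and their mean ran from -0.63 to -0.09 in controls and from -0.23 to 0.38 in P. gingivalis arrays, while the value table's groups gave 3 higher and 6 lower. All 5 tested tendon markers were higher, with a median of 0.31. The part of these cells in the P450 differences was not tested.

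Adipocyte markers did not separate the groups. Their mean was 0.18, -0.42, 0.28 and -0.56 in controls and 0.45, -0.55, 0.12 and -0.86 in P. gingivalis arrays. Cyp2e1 was highest in P. gingivalis 1, control 3, P. gingivalis 3 and control 1, the arrays above 0 for these markers. It read -1.03 on control 1, close to -1.08 on control 4, which was below 0 for the markers. Keratinocyte markers stood at 2.13 on control 4 and from -1.95 to -1.61 on the other arrays. Without control 4 the difference was 0.34 for Cyp4v3, 0.64 for Cyp2f2, 0.24 for the repeat probe of Cyp2u1 and 0.38 for Cyp1b1, and 5 P450 genes had an unadjusted p under 0.05, beside 10.4% of all genes. Of 9 endothelial markers 1 was higher and 8 lower, with a median of -0.04. Of these, 2 were lower without overlap, beside 3.83% of all genes in that direction. Grouped as in the value table, all 9 were higher, with a median of 0.18. Kdr, a receptor for vascular growth factor, was at -0.59 ± 0.15, and at 0.18 when grouped as in the value table. All 5 tested neutrophil markers were lower, S100a9 at -2.93 ± 0.80 and S100a8 at -3.42 ± 0.97, and all 5 were also lower in the value table's groups.

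**Figure D5:**
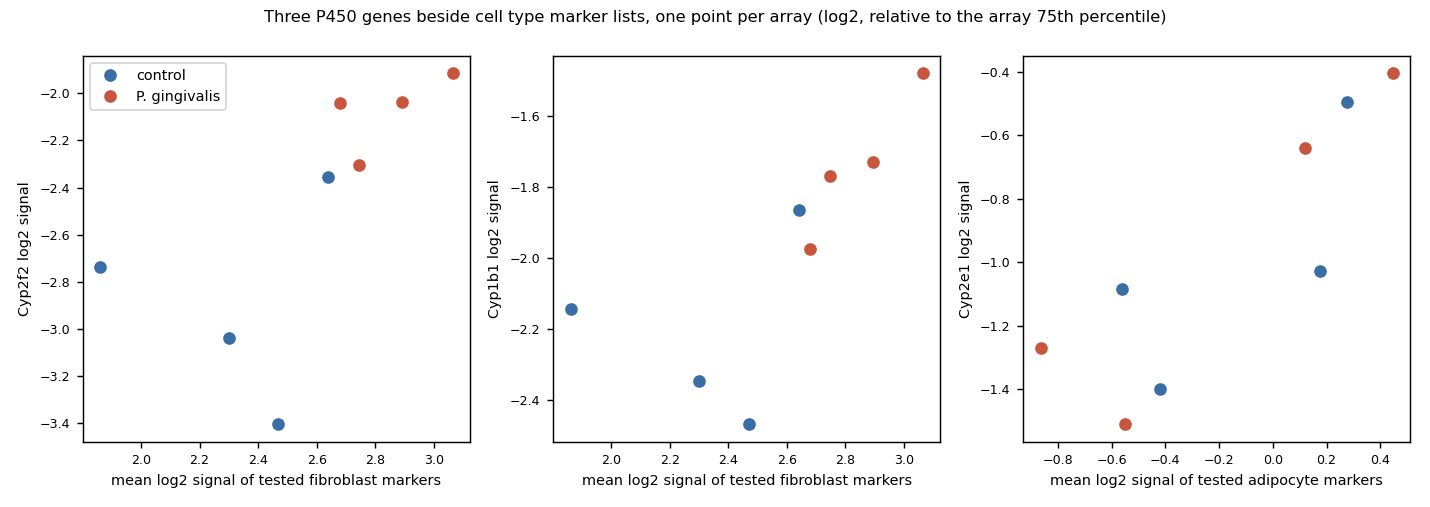
Log2 signal of Cyp2f2, Cyp1b1 and Cyp2e1 (vertical axes) against the mean log2 signal of fibroblast or adipocyte markers (horizontal axes), 1 point per array, all relative to the array's 75th percentile. Fibroblast marker means lie from 1.86 to 2.64 in controls and from 2.68 to 3.06 in P. gingivalis arrays, and adipocyte marker means overlap.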

How the data were processed

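Members and gene lists were chosen with earlier results of these data known. The authors deposited spot intensity values that Agilent's Feature Extraction software gave (per the file headers version 11.0.1.1, per the submitters' processing notes 11.1), background-subtracted and detrended within an array, with dim spots given a surrogate value, and not normalized between arrays, per the file headers. Labelling used 200 ng of total RNA and Cy3, per the labels' protocols. The authors' deposited value table holds log2 signals of 24764 probes, with scaling and probe choice not given in the sources used here. Centred by probe, each of its columns had 1 clear partner array (r of 0.833 to 0.88, next at most 0.0784). Only 2 of 8 columns matched the array of their own label, and 4 an array of their own group.

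Processed intensities became log2 values less the 75th percentile of an array's non-control spots. Outlier spots were left out and spots of a probe averaged. Tested were 31649 probes well above background on at least 4 of 8 arrays (over 50% of a probe's spots). On an array 56.3% to 59.3% of spots were well above background and 0 were saturated. The number of arrays limits the precision. The tested probe of highest mean signal stands for its gene, with names updated through RefSeq GRCm38.p6. One P450 gene is renamed there (Cyp2c44 is now Cyp2c23) and keeps its file name. Whether probes of near-identical P450 genes, such as those of Cyp2c, Cyp2d and Cyp4a, bind each other's transcripts was not tested. The test was limma's (version 3.58.1, R 4.3.3, lmFit and eBayes with no covariate), adjusted by Benjamini-Hochberg over all tested probes with a threshold of 0.05, and the code was tested on simulated data. Figures used matplotlib 3.10.9. Alternatives were quantile normalization, normexp background correction with an offset of 50, another scaling percentile, other filters, an intensity trend, the value table and its groups, the mean of a gene's probes, a replicate block and leaving out each array.

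The 22 P450 genes named by rule were the 10 of lowest p and 18 tested ones of a list of 22 enzymes with known roles outside liver, with any gene well above background on all arrays of one group and none of the other. From each pathway list up to 3 genes of lowest p were named. Some genes that this rule names are not reported here.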

Additional observations from a re-analysis of the deposited data

Results flagged for a closer look

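In 4 of 44 groups of 4 arrays (22 named P450 genes in both groups), 1 array stood apart from the others by Dixon's criterion at 95%, which chance alone meets in about 1 of 20 groups. Cyp2j9 stood at -1.89 on control 4, beside -2.16 to -2.13 on the other controls. Cyp4b1 stood at -1.10 on P. gingivalis 1, beside -1.14 to -1.13 on the others of its group. Cyp4x1 stood at -4.07 on control 4, beside -4.68 to -4.64 on the other controls. It also stood at -5.92 on P. gingivalis 4, beside -4.87 to -4.79, where its probe was well above background on no array of the group.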

How the results depend on the processing

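By limma, 0 P450 genes passed an adjusted p of 0.05 under every alternative tried, while the count at an unadjusted p under 0.05 was 1 to 19. The lowest adjusted p of a P450 gene was 0.0602, for Cyp1b1 and Cyp2f2 alike with normexp background correction. That setting gave 19 P450 genes at an unadjusted p under 0.05 (26.4% of all genes) and 13 without overlap (15.9% of all genes). With no filter on dim probes these counts were 9 and 7 of 102 genes (8.24% and 5.76% of all genes). In the value table they were 1 and 2 under its own labels (3.30% and 2.25% of all genes), and 2 P450 genes had no overlap with its columns matched to the scanner arrays (6.91%). Grouped as in the value table, 1 gene had no overlap (2.43%), and on the arrays grouped alike by both sources, 2 against 2, 16 had none, beside 44.0% of all genes. Leaving out each array in turn gave 5 to 8 genes at an unadjusted p under 0.05 (8.12% to 11.8% of all genes), with 8 without control 3 or without P. gingivalis 1, and 4 to 7 genes without overlap (10.1% to 13.3%), with 7 without control 3. Over these left-out arrays the median difference of the tested P450 genes ran from 0.0247 without control 2 to 0.117 without P. gingivalis 2. The cause of these shifts was not tested.

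Sign changes in which either value had an unadjusted p under 0.05 were 8 of 434. In the value table under its own labels Cyp1b1 was at -0.074, Cyp2f2 at -0.073 and Cyp26b1 at 0.40. With the groups of the value table Cyp1b1 was at -0.094, Cyp2f2 at -0.095 and Cyp4v3 at -0.0012. With normexp background correction Cyp2s1 was at 0.18. Without its repeat probe, an alternative chosen after seeing the data, Cyp2u1 was at -0.18. Of the rest, 390 kept their sign with an adjusted p over 0.05, as in the reported fit, and 36 changed sign with neither value past an unadjusted p of 0.05. Signs were the same under all alternatives run for Cyp20a1, Cyp27a1, Cyp2d22, Cyp4f13, Cyp4f18 and Cyp4f39.

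With the replicate number as a block, 7 P450 genes had an unadjusted p under 0.05 (9.56% of all genes) and the median difference was 0.068. The labels do not say that the numbers pair samples. Deviations of same-numbered arrays from their group means correlated at 0.0069 to 0.063, and 1 of 4 numbers gave the best partner. With so few arrays, this cannot exclude a pairing. The median of all tested probes was -0.02 in the reported fit and 0.05 with normexp background correction. It was -0.0012 with quantile normalization and -0.0094 with the other scaling percentile. Signal over background limits what can be said of the 10 P450 genes detected on 1 to 3 arrays and the 49 on none.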
